A study of Mus musculus with 16 samples.

Results

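The comparison described here set whole skin of Mcpip1(EMdKO) mice against whole skin of Mcpip1(MKO) mice, so that the groups differed in the keratinocyte Cre and shared the myeloid one. It used the 8 libraries labelled with these groups, 4 EMdKO and 4 MKO mice, of 16 libraries in all, and every targeted transcript. EMdKO mice had the genotype Zc3h12a(loxP/loxP) with both LysMCre(Tg/Wt) and Krt14Cre(Tg/Wt). MKO mice had Zc3h12a(loxP/loxP) with LysMCre(Tg/Wt) only. The other 8 libraries came from 4 EKO mice, with Zc3h12a(loxP/loxP) and Krt14Cre(Tg/Wt), and from 4 control mice, with the floxed gene and no Cre. All mice were 12 weeks old. Krt14-Cre is active in keratinocytes of the basal layer and of skin appendages, and their descendants keep the deletion. LysM-Cre sits in the Lyz2 gene and is active in macrophages, neutrophils and other myeloid cells, so the level of Lyz2 itself is no clean measure of those cells in mice that carry it. The question was what the loss of MCPIP1 in keratinocytes adds in skin whose myeloid cells carry the floxed gene and Cre.

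The gene Zc3h12a encodes MCPIP1 (Regnase-1), an RNA-cutting enzyme. It cuts stem-loops in the 3′ ends of mRNAs for inflammatory mediators and of its own mRNA, and so limits how long these mRNAs last. Keratinocytes answer damage and cytokines such as IL-17 and IL-36 by secreting IL-1 family cytokines and antimicrobial proteins, and they change the proteins and lipids of the cornified layer as they differentiate.

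The targeted kit used here copies a short amplicon of every transcript, and each value is a read count of an amplicon. The EMdKO libraries held 8198367 to 12086327 counts and the MKO libraries 6962474 to 8168152, over 23930 targets. CPM is the count scaled to a common library total, and the amplicons do not allow levels to be compared between genes. A log2 fold change is EMdKO over MKO with its approximate standard error, derived from the F statistic of the test. Nothing in the labels says that mice of a group came from separate litters or cages, so p-values measure the spread between these mice. Skin is a mixture of cells, and fewer cells of a type cannot be told apart from less RNA per cell in these data.

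Zc3h12a was the only gene called in the fit of all 16 libraries (edgeR quasi-likelihood, Benjamini-Hochberg adjusted p under 0.05). That is 1 lower gene of 13633 tested (0.00734%) and 0 higher genes (0%), with 1012 genes (7.42%) at an unadjusted p under 0.05. The fit of the 8 EMdKO and MKO libraries alone, an alternative, called 85 higher genes of 13126 (0.648%) and 5 lower ones (0.0381%), with 1245 genes (9.48%) at an unadjusted p under 0.05. DESeq2 called 143 genes on all 16 libraries and 301 on the 8. The estimated biological coefficient of variation was 0.31 with all 16 libraries and 0.25 with the 8. Leaving EKO mouse 1, which is in neither group and enters the larger fit through the shared estimate of the spread, out of that fit gave 95 calls, 88 higher (0.64%) and 7 lower (0.0509%). Of those, 70 were among the 90 calls of the 8-library fit, which is 77.8% of the 90 and 73.7% of the 95. Below, a gene is said to rise or fall where the 8-library fit called it, and apart from Zc3h12a none of these calls was made in the fit of all 16 libraries. The 8-library calls also lean on single mice: leaving out 1 mouse at a time left 26 to 77 calls, and 21 of the 90 genes were called in every one of those 8 fits. In none of the 8 fits were 5 of the 90 genes called.

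The 85 genes that rose had log2 fold changes of 0.97 to 5.62, and the 5 that fell had -2.86 to -1.02. In every one of the 85 genes all 4 EMdKO mice lay above all 4 MKO mice, which holds for 3.74% of the genes tested in that fit. In the 5 lower genes all EMdKO mice lay below all MKO mice, against 2.28% of the tested genes. The genes were called on these same mice, so the separation is no further evidence for the calls. The median log2 fold change was 1.94 over the 85 genes and -0.01 over all genes tested.

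Zc3h12a had 5.47, 5.69, 5.71 and 4.41 CPM in EMdKO mice 1 to 4, against 17.1, 35.01, 29.2 and 24.8 CPM in MKO mice 1 to 4. The highest EMdKO value was below the lowest MKO value. The log2 fold change was -2.32 ± 0.24 in the fit of all 16 libraries (edgeR quasi-likelihood with Benjamini-Hochberg adjustment, adjusted p = 0.000497), and the smaller fit gave an adjusted p of 0.00221. An exact two-sided permutation test of the difference in mean log2 CPM, -2.23, gave p = 0.0286, the smallest that 4 against 4 mice allow. The EKO mice had 11.7, 7.07, 7.4 and 8.41 CPM, all above the EMdKO mice, and the control mice had 19.4 to 30.3 CPM. Where the amplicon lies relative to the floxed exons is not known here, so the remaining reads can come from cells without Cre activity or from the rest of a deleted transcript.

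Krt14, the keratin whose promoter drives the keratinocyte Cre, had 1218, 1836, 1305 and 2026 CPM in EMdKO mice, against 651, 1364, 1101 and 705 CPM in MKO mice. The groups overlapped, and the log2 fold change of 0.74 ± 0.39 was not called (edgeR with Benjamini-Hochberg adjustment, adjusted p = 0.721, and 0.406 in the smaller fit). Lyz2 had 188, 295, 248 and 191 CPM in EMdKO mice, against 263, 176, 225 and 209 CPM in MKO mice. Its log2 fold change was 0.08 ± 0.30 (edgeR, adjusted p = 0.982), and its sign turned when EMdKO mouse 2 or MKO mouse 2 was left out.

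The markers of skin cell types were present as the label says. Krt5, a basal keratin, lay at 2811 to 4799 CPM in EMdKO and 1969.8 to 3348 CPM in MKO mice, and Col1a1 of fibroblasts and Csf1r of macrophages were detected in each library. Markers of T cells and endothelium were found too, while Ly6g, which defines mouse neutrophils, had 0 counts in all 8 libraries. Tissue content differed between mice of a group. The mean log2 CPM of the hair shaft and inner root sheath list was 1.21, -0.27, 6.65 and -0.14 in EMdKO mice and -0.46, -0.11, -0.10 and 3.07 in MKO mice, so EMdKO mouse 3 and MKO mouse 4 stood apart. The skeletal muscle list had 10.4, 11.03, 9.69 and 10.75 in EMdKO and 12.08, 10.42, 10.48 and 10.71 in MKO mice, with MKO mouse 1 the highest and EMdKO mouse 3 the lowest. The basal keratinocyte list spanned 8.10 to 8.51 in EMdKO and 7.70 to 8.30 in MKO mice, and MKO mouse 1 was again the extreme.

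**Figure D1:**
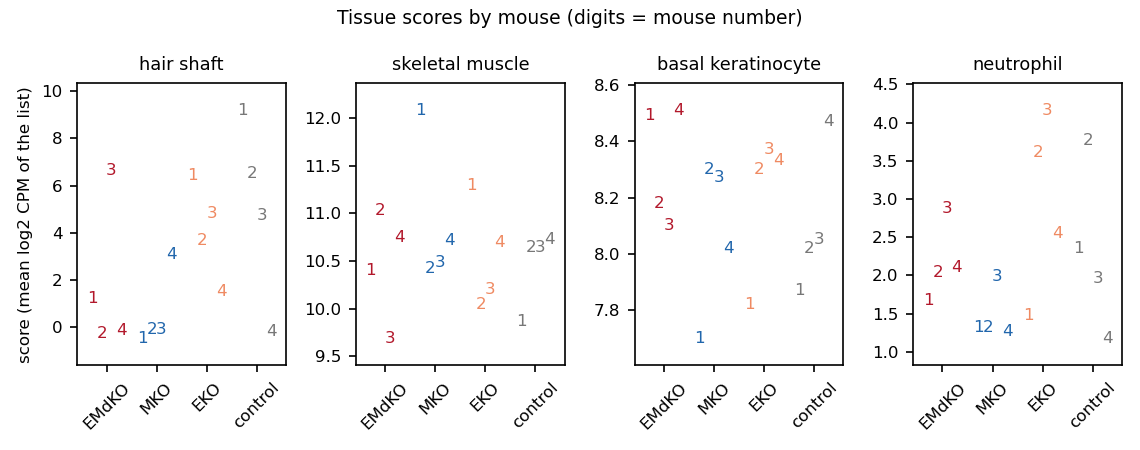
Mean log2 CPM of the hair shaft, skeletal muscle, basal keratinocyte and neutrophil lists (y axis) in each mouse, with digits for the mouse number and EMdKO left of MKO, then EKO and control. EMdKO mouse 3 stands at 6.65 in the hair panel and MKO mouse 1 at 12.08 in the muscle panel.

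These mice also stood out among the called genes. EMdKO mouse 3 had the highest EMdKO level in 65 of the 85 genes that rose, and MKO mouse 1 had the lowest MKO level in 48 of them. Without EMdKO mouse 3 and MKO mouse 4, the fit of the remaining 6 libraries called 28 of the 85 genes (0.228% of tested genes were called higher), and all 85 log2 fold changes were positive. Without EMdKO mouse 3 and MKO mouse 1, 64 of the 85 were called and again all 85 were positive. The signs are no check, as the groups did not overlap in any of the 85 genes before mice were left out. With the hair score as a covariate the 8-library fit made 89 calls, 72 of them among the 90, with the muscle score 127 and 86, and with the basal keratinocyte score 104 and 66.

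The IL-36 cytokines and IL-1 alpha rose. They are secreted by keratinocytes, act through receptors that share Il1rap, and IL-36 is best known in skin for its part in psoriasis-like inflammation. Of 18 tested ligands and receptors of the IL-1, IL-36 and IL-18 group, 4 rose and 0 fell (0.648% and 0.0381% of all genes), 12 had a positive log2 fold change in the fit of all 16 libraries, which holds for 48.1% of all genes tested there, and the median was 0.39. Il1f6, which encodes IL-36 alpha, had 34.9, 30.4, 58.5 and 40.7 CPM in EMdKO mice and 0.470, 1.64, 1.31 and 0.878 CPM in MKO mice. The lowest EMdKO mouse was far above the highest MKO mouse, whose counts were 3 to 13 per library, so the size of the fold rests on few MKO reads. The log2 fold change was 5.21 ± 0.34 in the 8-library fit and 5.21 ± 0.90 in the fit of all 16 (edgeR with Benjamini-Hochberg adjustment, adjusted p = 0.000122 and 0.0814). EKO mouse 1 had 0.516 CPM and the other EKO mice 92.4, 79.5 and 79.3 CPM, and without EKO mouse 1 the standard error of the larger fit was 0.29.

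Il1f8, which encodes IL-36 beta, had 31.5, 15.1, 46.9 and 32.7 CPM in EMdKO mice, against 5.02, 11.2, 7.75 and 4.39 CPM in MKO mice. Il1f9, IL-36 gamma, had 207, 152, 238 and 274 CPM in EMdKO mice, against 62.7, 121, 76.4 and 49.2 CPM in MKO mice. Il1a had 26.3, 15.4, 32.4 and 25.4 CPM in EMdKO mice, against 4.86, 10.6, 9.65 and 4.52 CPM in MKO mice. In each of the 3 genes EMdKO mouse 2 was closest to the MKO range and MKO mouse 2 the highest of its group, and no values overlapped. The log2 fold changes were 2.15 ± 0.37, 1.49 ± 0.28 and 1.74 ± 0.32 for Il1f8, Il1f9 and Il1a (edgeR on the 8 libraries, adjusted p = 0.0288, 0.0369 and 0.0342). Without EMdKO mouse 3 and MKO mouse 4 none of these 3 was called, with adjusted p of 0.165 to 0.192 in edgeR, while Il1f6 was (adjusted p = 0.00117).

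Of the 18 members 9 were higher at an unadjusted p under 0.05 in the 8-library fit. The receptors and antagonists named here were called in neither fit. Il1rl2, the IL-36 receptor chain, had a log2 fold change of 0.04 ± 0.16 and Il1rap 0.04 ± 0.18 in the fit of all 16 libraries. Il1rn and Il1f5, which encode antagonists of the IL-1 and IL-36 receptors, had 0.64 ± 0.34 and 0.60 ± 0.39 and were not called. Il1b had 1.48 ± 0.97 and was not called (edgeR, adjusted p = 0.782, and 0.138 in the 8-library fit).

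**Figure D2:**
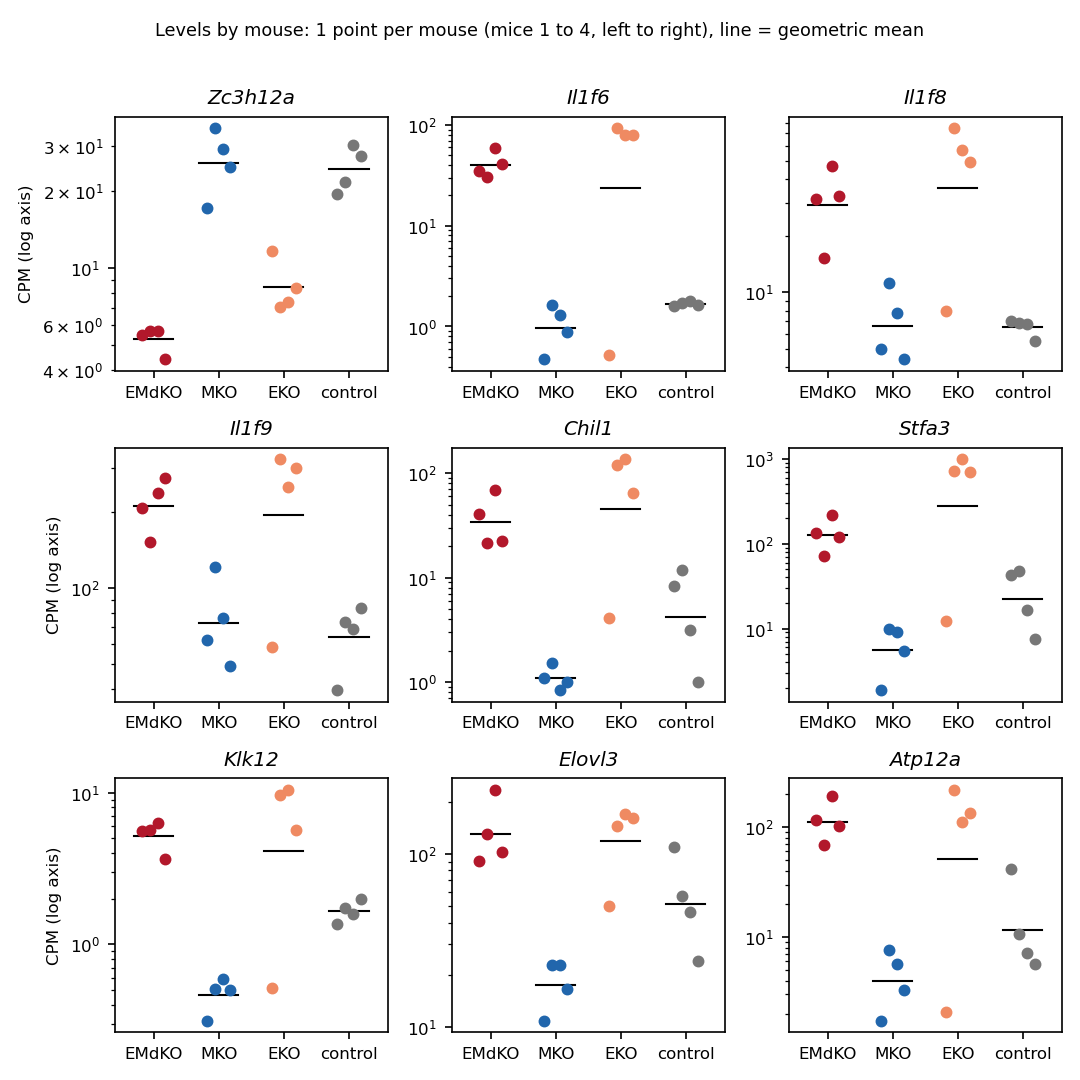
CPM of 9 genes on log axes in each mouse, 1 point a mouse in the order of mice 1 to 4 and a line at the geometric mean, for EMdKO, MKO, EKO and control from left to right. Zc3h12a is lower in EMdKO than in MKO, the other 8 genes are higher without overlap, and EKO mouse 1 lies apart from EKO mice 2 to 4 in these 8.

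Promoter sequence of the genes that rose was looked at for the letters of known factor sites, as a description. RefSeq promoters on GRCm38.p6 were found for 61 of the 85 genes, as 68 entries of 250 bases before the annotated start, some overlapping within a gene. The AP-1 pattern TGANTCA was in 15 entries (22.1%) from 13 genes, against 6.75% of 32851 promoters in the whole table and 5.06% of the 13056 promoters of tested genes. The C/EBP pattern TTGCNNAA was in 15 entries (22.1%), against 9.56% of the whole table and 7.90% for tested genes. A loose NF-kB pattern (3 G, any 5 bases, 2 C) was in 45.6% of the entries, against 45.8% of all promoters and 60.1% for tested genes, and a stricter one (3 G, 2 A, any 2 bases, 3 C) in 0 of 68 entries, against 1.53% of all and 2.07% for tested genes. Both strands were read, 8 patterns were searched, and the median GC share was 51.2% in these entries and 59.2% for tested genes. No test was made, and letters in a window do not show that a factor binds there.

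The promoters of Il1f8, Il1a, Rptn and Slc37a2 are shown because each holds the AP-1 letters, printed in capitals, in a gene described in the results. Il1f8 is on chr2:24152922-24153171 (plus strand), with the pattern 236 bases before the start, and Il1a on chr2:129309973-129310222 (minus strand), with it 12 bases before. Rptn is on chr3:93393449-93393698 (plus strand), with it 96 bases before, and Slc37a2 on chr9:37255739-37255988 (minus strand), with it 107 bases before.
Il1f8: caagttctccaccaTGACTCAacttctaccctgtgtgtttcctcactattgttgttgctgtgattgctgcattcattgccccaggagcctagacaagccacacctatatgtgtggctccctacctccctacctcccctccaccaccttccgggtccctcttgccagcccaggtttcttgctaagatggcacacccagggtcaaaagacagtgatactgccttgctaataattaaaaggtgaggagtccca
Il1a: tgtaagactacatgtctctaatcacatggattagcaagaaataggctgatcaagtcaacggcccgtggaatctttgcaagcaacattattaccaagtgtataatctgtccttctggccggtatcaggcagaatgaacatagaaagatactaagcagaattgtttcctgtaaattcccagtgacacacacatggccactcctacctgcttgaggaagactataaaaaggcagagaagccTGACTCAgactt
Rptn: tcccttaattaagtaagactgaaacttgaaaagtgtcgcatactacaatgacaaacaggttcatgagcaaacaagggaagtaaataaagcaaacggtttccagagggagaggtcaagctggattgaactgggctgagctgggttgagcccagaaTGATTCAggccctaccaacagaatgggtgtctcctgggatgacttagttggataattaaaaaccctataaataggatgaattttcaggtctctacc
Slc37a2: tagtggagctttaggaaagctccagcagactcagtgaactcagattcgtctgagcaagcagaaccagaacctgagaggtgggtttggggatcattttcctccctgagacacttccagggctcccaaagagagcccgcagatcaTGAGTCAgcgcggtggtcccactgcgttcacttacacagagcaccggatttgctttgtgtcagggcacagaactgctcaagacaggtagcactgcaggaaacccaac

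Antimicrobial and alarmin genes rose as well: S100a9, Lcn2, Defb14 and Chil1, 4 of 11 list members with enough counts in the 8-library fit, and 0 fell. Over all genes of that fit 0.648% rose and 0.0381% fell. In the fit of all 16 libraries 16 members of the list were tested, and 15 had a positive log2 fold change, against 48.1% of all genes. The median was 2.30, but genes nearly silent in MKO skin pass a count filter only where they are high. The median was 0.82 without EMdKO mouse 3 and MKO mouse 4, over the 11 members with enough counts, all positive. Chil1, a chitinase-like secreted protein, had 40.4, 21.6, 69.9 and 22.7 CPM in EMdKO mice and 1.10, 1.52, 0.834 and 1.00 CPM in MKO mice. The log2 fold change of 5.11 ± 0.46 was among the largest of the 90 calls (edgeR on the 8 libraries, adjusted p = 0.00164). S100a9, a subunit of calprotectin, had 7.87, 3.63, 10.5 and 10.4 CPM in EMdKO mice and 0.314, 0.758, 0.715 and 0.251 CPM in MKO mice (log2 fold change 3.93 ± 0.46, edgeR adjusted p = 0.00371). Every EMdKO mouse was above every MKO mouse in both genes. Control mice had 1.75 to 24.7 CPM for S100a9, which spans the EMdKO values, and 1.00 to 11.9 CPM for Chil1, below them. S100a9 is made by neutrophils and by keratinocytes. The neutrophil list had 6 of 14 members tested in the 8-library fit, of which only S100a9 rose. Its median log2 fold change was 0.45 over the 8 members tested with all 16 libraries. Without EMdKO mouse 3 and MKO mouse 4 the median of the list was -0.20, over the 6 members with enough counts. Its mean log2 CPM spanned 1.67 to 2.87 in EMdKO and 1.27 to 1.98 in MKO mice. Ly6g and Mpo were at 0 counts in all 8 libraries, Elane had at most 1 count, and Csf3r lay at 6.62 to 9.42 CPM in EMdKO and 5.49 to 9.53 CPM in MKO mice.

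Lcn2, which binds the iron carriers of bacteria, had 20.5, 17.3, 76.3 and 15.3 CPM in EMdKO mice and 1.88, 5.18, 4.53 and 3.76 CPM in MKO mice. Defb14, a beta-defensin, had 17.7, 6.91, 7.99 and 13.5 CPM in EMdKO mice and 2.51, 3.41, 1.31 and 0.753 CPM in MKO mice. Neither gene overlapped between groups, with log2 fold changes of 3.06 ± 0.55 and 2.54 ± 0.45 (edgeR on the 8 libraries, adjusted p = 0.0337 and 0.0302). Control mice reached 28.5 CPM for Lcn2, within the EMdKO range, and 4.46 CPM for Defb14, below it. Defb6 had 1.95 ± 0.48 and did not pass (adjusted p = 0.136).

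Proteins of the cornified envelope, the cross-linked shell of dead keratinocytes, rose in 3 of 19 members tested in the 8-library fit, Hrnr, Rptn and Sprr2g, and 0 fell (0.648% and 0.0381% of all genes). In the fit of all 16 libraries 22 of the 46 members had enough counts, and 21 had a positive log2 fold change, against 48.1% of all genes. The median was 1.73. It was 1.06 without EMdKO mouse 3 and MKO mouse 4, over 19 members, 18 of them positive. The mean log2 CPM of the list was 6.21, 5.20, 7.64 and 5.93 in EMdKO mice and 4.19, 5.21, 5.0 and 5.16 in MKO mice, so EMdKO mouse 3 was the highest and EMdKO mouse 2 lay within the MKO range. Hrnr, which encodes hornerin, had 349.9, 271, 458 and 405 CPM in EMdKO mice and 102, 139.8, 143 and 104 CPM in MKO mice. Every EMdKO mouse was above the highest MKO mouse, and the log2 fold change was 1.6 ± 0.2 (edgeR on the 8 libraries, adjusted p = 0.00598, against 0.217 over all 16). Rptn, which encodes repetin, had 53.8, 32.6, 84.6 and 37.1 CPM in EMdKO mice and 3.61, 13.5, 11.2 and 7.15 CPM in MKO mice (log2 fold change 2.54 ± 0.40, edgeR adjusted p = 0.0214). Sprr2g had at most 4 counts in any MKO library, and its log2 fold change of 4.02 ± 0.73 depends on them. Control mice overlapped the EMdKO mice for Rptn, at 16.6 to 53.3 CPM, and Sprr2g, at 0.867 to 9.49 CPM, and lay below them for Hrnr.

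The long repetitive filaggrin gene and the late cornified genes were uneven. Flg had 2347, 1350.0, 4886 and 1199.5 CPM in EMdKO mice, against 647, 533, 385 and 1360.5 CPM in MKO mice, and these ranges overlapped. Lce1g and Lce1e had log2 fold changes of 2.73 ± 0.57 and 2.08 ± 0.41 and missed the threshold (edgeR on the 8 libraries, adjusted p = 0.0628 and 0.0529). Lce genes are near-identical copies, so reads may have been split between them. Of the keratins and desmosome genes of the layers above the basal one, 0 of 13 were called. All 13 had a positive log2 fold change, against 48.1% of all genes, with a median of 0.26. Krt1 had the largest value at 1.13 ± 0.24 (edgeR on the 8 libraries, adjusted p = 0.0647). It had 1349 to 2458 CPM in EMdKO and 680 to 992 CPM in MKO mice.

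Inhibitors of proteases, which keep the enzymes of the cornified layer in check, rose in 5 of 10 members tested in the 8-library fit, Stfa1, Stfa3, Serpinb3b, Serpinb12 and Cst6, and 0 fell (0.648% and 0.0381% of all genes). Stfa3, a stefin A inhibitor of cathepsins, had 133, 71.4, 218 and 118 CPM in EMdKO mice and 1.88, 9.98, 9.18 and 5.40 CPM in MKO mice (log2 fold change 4.33 ± 0.47, edgeR adjusted p = 0.00339). Cst6, which encodes cystatin M/E, had 827, 540.3, 795 and 559 CPM in EMdKO mice and 112, 305, 249 and 148 CPM in MKO mice (1.74 ± 0.31, edgeR adjusted p = 0.0316). Neither overlapped, and MKO mouse 1 was the lowest of its group in both. Control mice had 0.25 to 36.5 CPM for Stfa1, which spans the EMdKO values of 3.26 to 8.85 CPM. They lay below the EMdKO mice for Stfa3, Serpinb3b, Serpinb12 and Cst6. For Cst6 the control mice had 351 to 468 CPM, above every MKO mouse. The stefins and the Serpinb3 genes are close copies, so which copy each amplicon reports is uncertain. Serpinb3a was tested only with all 16 libraries: it had 4.23, 1.21, 10.6 and 3.57 CPM in EMdKO mice and 1 count in all in the 4 MKO mice.

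The kallikreins and other proteases of the epidermis, several of which the inhibitor Spink5 restrains, had positive log2 fold changes in 18 of 18 members, against 48.1% of all genes. The median was 0.79. Only Klk12 and Prss27 rose, where 0.648% of all genes rose in the 8-library fit. Control mice had 1.37 to 6.47 CPM for Prss27, which reached into the EMdKO values of 3.39 to 9.90 CPM. Klk12 had 5.55, 5.69, 6.28 and 3.68 CPM in EMdKO mice and 0.314, 0.506, 0.596 and 0.502 CPM in MKO mice. The log2 fold change was 3.41 ± 0.33 (edgeR on the 8 libraries, adjusted p = 0.00181), from 2 to 5 counts in each MKO library. Control mice had 1.36 to 2.00 CPM for Klk12, above every MKO mouse and below every EMdKO mouse. Klk10 and Klk13 had values of 1.87 ± 0.42 and 3.5 ± 0.7 that did not pass on the 8 libraries (edgeR, adjusted p = 0.093 and 0.0525). The secreted Ly6 proteins Slurp1 and Slurp2, which keratinocytes of differentiating layers make, rose among 9 tested members (0.648% of all genes rose). Slurp2 had 204, 39.0, 283 and 100.5 CPM in EMdKO mice and 1.57, 11.6, 10.1 and 8.66 CPM in MKO mice, with EMdKO mouse 2 the closest to the MKO mice (4.27 ± 0.65, edgeR adjusted p = 0.0171).

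**Figure D3:**
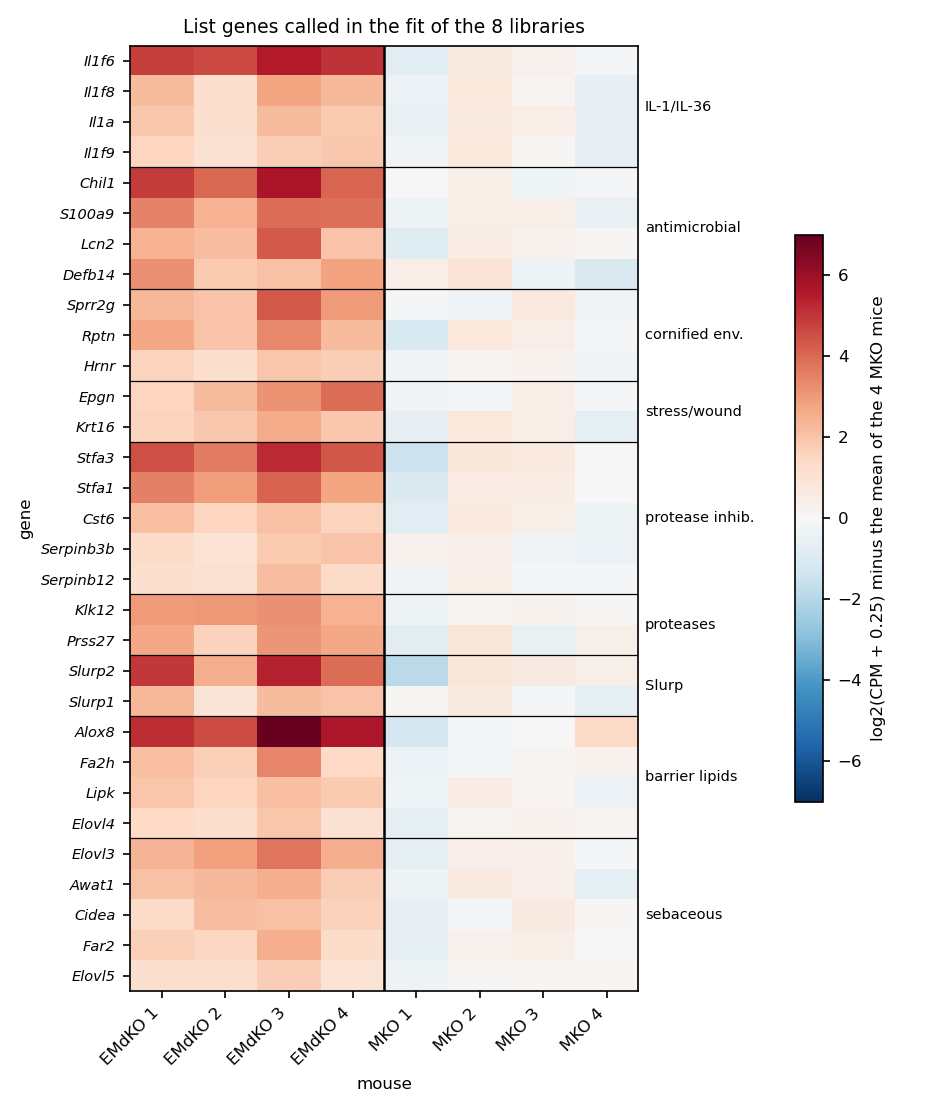
Log2(CPM + 0.25) of the 31 list genes that rose in the 8-library fit (rows, by list), relative to the mean of the 4 MKO mice, with EMdKO mice in the left 4 columns and MKO mice in the right 4. Every EMdKO cell is above 0, between 0.91 and 6.91, and MKO cells lie between -1.88 and 1.37. The genes were picked by their call on these same mice.

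Enzymes of epidermal lipids rose in 4 of 23 cases, Alox8, Fa2h, Lipk and Elovl4, with 22 of 23 log2 fold changes positive and a median of 0.35, or 0.23 without EMdKO mouse 3 and MKO mouse 4. Of all genes 0.648% rose in the 8-library fit, and 48.1% were positive in the fit of all 16 libraries. Alox8, the lipoxygenase that oxygenates arachidonic acid at carbon 8 in mouse skin, had 108, 73.4, 368 and 153 CPM in EMdKO mice and 1.10, 2.53, 2.74 and 7.65 CPM in MKO mice. At 5.62 ± 0.65 it was the largest log2 fold change of the 90 calls (edgeR on the 8 libraries, adjusted p = 0.00371), but control mice ran from 2.00 to 184 CPM, so mice without any Cre overlapped both groups. Fa2h, which hydroxylates fatty acids for ceramides, had 572, 421, 1387 and 349 CPM in EMdKO mice and 98.0, 123, 153 and 162 CPM in MKO mice. Elovl4, which builds the very long acyl chains of barrier ceramides, had 1258, 1105, 1814 and 1001 CPM in EMdKO mice and 297, 544, 572 and 527 CPM in MKO mice. Neither overlapped, with log2 fold changes of 2.35 ± 0.41 and 1.42 ± 0.27 (edgeR on the 8 libraries, adjusted p = 0.0294 and 0.0398). With 1 mouse left out, Elovl4 was called in 0 of 8 fits (edgeR, adjusted p of 0.0565 to 0.109). Lipk, an epidermal lipase, had 1.81 ± 0.22 (edgeR adjusted p = 0.00456).

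Genes of the sebaceous gland, which secretes wax and triglyceride onto the hair, rose in 5 of 20 cases, Elovl3, Awat1, Cidea, Far2 and Elovl5 (0.648% of all genes). Of the 20, 18 were positive, against 48.1% of all genes, with a median of 0.95. Elovl3, a fatty acid elongase of sebocytes, had 90.2, 129, 234 and 102 CPM in EMdKO mice and 10.8, 22.6, 22.8 and 16.4 CPM in MKO mice (2.93 ± 0.34, edgeR on the 8 libraries, adjusted p = 0.00371). The wax ester synthase gene Awat1 had 24.1, 28.8, 35.1 and 19.6 CPM in EMdKO mice and 4.39, 9.10, 7.27 and 3.64 CPM in MKO mice (2.13 ± 0.30, edgeR adjusted p = 0.0116). Both separated the groups without overlap. Control mice had 23.9 to 109 CPM for Elovl3, reaching into the EMdKO range, and 3.84 to 14.9 CPM for Awat1, below it. Scd1, the desaturase most used as a sebocyte marker, had 0.53 ± 0.46 in the fit of all 16 libraries and was not called (edgeR, adjusted p = 0.854). Hair follicle and muscle content differed between these mice, as given above, and its part in this result was not tested. Without EMdKO mouse 3 and MKO mouse 4 the median of the sebaceous list was 0.83, and Elovl3 was still called (edgeR, adjusted p = 0.0294).

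Wound-associated keratins and growth factors split. Krt16 had 44.9, 56.9, 92.9 and 56.5 CPM in EMdKO mice and 10.03, 25.5, 21.2 and 9.29 CPM in MKO mice (1.92 ± 0.35, edgeR on the 8 libraries, adjusted p = 0.0322). Epgn, the EGF receptor ligand epigen, had 10.6, 17.6, 33.3 and 56.0 CPM in EMdKO mice and 2.98, 3.16, 5.005 and 3.26 CPM in MKO mice (3.01 ± 0.48, edgeR adjusted p = 0.0214). These were the only 2 called of 12 (0.648% of all genes rose), and the groups did not overlap in either. With 1 mouse left out, Krt16 was called in 1 of 8 fits and Epgn in 4. Control mice had 29.9 to 370 CPM for Krt16, which spans the EMdKO values, and 2.62 to 16.7 CPM for Epgn, which reaches into them. Krt17 had 0.94 ± 0.30 and the protease gene Plau -1.07 ± 0.27, neither called (edgeR on the 8 libraries, adjusted p = 0.277 and 0.143).

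The genes with the smallest p outside the lists were transporters and enzymes. Atp12a, the catalytic subunit of a non-gastric proton and potassium pump, had 116, 69.1, 194 and 103 CPM in EMdKO mice and 1.72, 7.58, 5.72 and 3.26 CPM in MKO mice (4.69 ± 0.44, edgeR on the 8 libraries, adjusted p = 0.00173). Aox4, an aldehyde oxidase, had 62.0, 78.7, 122 and 46.7 CPM in EMdKO mice and 3.76, 10.7, 9.29 and 7.15 CPM in MKO mice (3.31 ± 0.36, edgeR adjusted p = 0.00339). Slc5a1, the sodium-glucose cotransporter, had 22.8, 20.2, 30.8 and 20.8 CPM in EMdKO mice and 7.84, 7.96, 6.79 and 6.90 CPM in MKO mice (1.68 ± 0.19, edgeR adjusted p = 0.00371). None of the 3 overlapped between groups, and Slc5a1 was also the tightest within each group. Control mice reached 48.2 CPM for Aox4, above the lowest EMdKO mouse, and stayed below the EMdKO mice for Atp12a and Slc5a1. The efflux pump gene Abcc3, the sugar phosphate exchanger Slc37a2 and the esterase-like Aadacl3 rose by 2.19 ± 0.25, 2.00 ± 0.24 and 2.51 ± 0.31 on the log2 scale (edgeR on the 8 libraries, adjusted p = 0.00371, 0.00419 and 0.00456).

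Of the 54 genes outside the lists that rose, a few others were chosen for mention after their values were seen. Degs2 and Cers4, enzymes of ceramide synthesis, had log2 fold changes of 3.24 ± 0.42 and 1.59 ± 0.24. Rdh1, Rdh11 and Sdr16c5, enzymes of retinol metabolism, had log2 fold changes of 1.54, 0.97 and 1.2. Ehf, an ETS factor of epithelia, had 115, 85.3, 138 and 86.5 CPM in EMdKO mice and 8.94, 42.1, 26.1 and 21.2 CPM in MKO mice.

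The genes that fell were few. Tox3, an HMG-box protein, had 0.249, 0.363, 0.666 and 0.105 CPM in EMdKO mice and 1.88, 3.41, 3.22 and 1.88 CPM in MKO mice (-2.86 ± 0.47, edgeR on the 8 libraries, adjusted p = 0.0224). Pla1a, a phosphatidylserine phospholipase, had 12.5, 9.45, 10.7 and 9.03 CPM in EMdKO mice and 39.7, 25.5, 50.05 and 19.95 CPM in MKO mice (-1.69 ± 0.28, edgeR adjusted p = 0.0224). Irf4, a transcription factor of lymphocytes and of a dendritic cell subset, had 31.7, 41.7, 43.4 and 37.3 CPM in EMdKO mice and 66.0, 99.7, 79.7 and 66.4 CPM in MKO mice (-1.02 ± 0.17, edgeR adjusted p = 0.0271). All 3 separated the groups, and for Irf4 the EMdKO mice lay within the EKO range of 28.4 to 46.8 CPM. Amer2, which binds the Wnt pathway protein APC, had -2.68 ± 0.43 (edgeR adjusted p = 0.0214). The next in order of p in the fit of all 16 libraries, not called in either fit, were Dact1, at -1.01 ± 0.20 over the 8 libraries, Mrgprg at -2.75 ± 0.58 and Col6a5 at -4.92 ± 1.27, the last of which rests on MKO mouse 3 at 713 CPM against 11.4 to 33.1 CPM in the other MKO mice.

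Few genes of the immune lists were called, but few were called of all genes (0.648% higher and 0.0381% lower in the 8-library fit). In lists of this size 0 calls therefore say little. No macrophage gene was called, of 22 in the fit of all 16 libraries or 21 in the 8-library fit. Of the 22, 6 were positive and the median was -0.14. Of 13 T and NK cell genes, or 12 in the 8-library fit, 0 were called (median 0.16), and in the dendritic and the B cell lists only Irf4 fell. The B and plasma cell list had a median of -0.50, with 5 of 7 members negative. Its score was 4.55 to 4.76 in EMdKO and 4.50 to 5.72 in MKO mice. Jchain, the joining chain of secreted antibodies, had 1.99, 3.63, 0.856 and 1.47 CPM in EMdKO mice and 2.35, 30.2, 15.97 and 2.76 CPM in MKO mice, and was not called. Of 22 chemokines 0 were called, with a median of -0.07; Ccl20 had 1.71 ± 0.54 and Cxcl1 2.18 ± 0.52 over the 8 libraries, at 2.67 to 6.63 and 1.26 to 2.57 CPM in EMdKO mice. The MHC and interferon-gamma list had a median of -0.03 with 0 of 23 called, and the type I interferon list 0.10 with 0 of 20. Without EMdKO mouse 3 and MKO mouse 4 the medians were -0.28 for B and plasma cells, -0.26 for macrophages, 0.10 for T and NK cells, -0.13 for chemokines, -0.05 for MHC and interferon-gamma and -0.16 for type I interferon. Those of macrophages and of T and NK cells cover 21 and 12 members there.

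Cytokines of the IL-17 and IL-6 group gave no signal at this depth. Il17a had 0 counts in all 8 libraries, which allows up to 3 counts in a library, and Il6 had at most 6 counts in any. In 9 tested members of the list 0 were called in either direction. The mRNAs described as direct targets of MCPIP1 were mixed: of 21 tested, Il1f6, Il1f9 and Lcn2 rose and Zc3h12a fell (0.648% and 0.0381% of all genes). Of the 21, 17 had a positive log2 fold change, against 48.1% of all genes, with a median of 0.53. The list was assembled from published targets in several cell types, and Il1f6, Il1f9, Lcn2 and Zc3h12a are also members of other groups above. Nfkbiz, an inducer of IL-17 and IL-36 responses whose mRNA is a target, had 515, 371, 654 and 463 CPM in EMdKO mice and 239.8, 353, 252 and 284 CPM in MKO mice. These values did not overlap, but the log2 fold change of 0.83 ± 0.21 was not called (edgeR on the 8 libraries, adjusted p = 0.144). Zc3h12c, a relative of Zc3h12a, had 0.77 ± 0.17 and was not called (edgeR, adjusted p = 0.0908).

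Lists of matrix, muscle and nerve genes had negative medians. Of all genes tested with all 16 libraries 48.1% had a positive log2 fold change. Of 21 collagen and matrix genes 18 had a negative log2 fold change, with a median of -0.30 and 0 called (8 positive, with a median of -0.43, without EMdKO mouse 3 and MKO mouse 4), and Fn1 was the lowest at -1.58 ± 0.45 with MKO mouse 3 at 2032 CPM. The skeletal muscle list had a median of -0.66 with 0 of 19 called, and MKO mouse 1 was the highest mouse for it. The nerve and Schwann cell list had -0.51 with 0 of 9. The hair shaft list had a median of 3.73 in the fit of all 16 libraries, 28 of 30 positive and 0 called. Without EMdKO mouse 3 and MKO mouse 4 it was 0.44, in the 9 members with enough counts. The cell cycle list was positive in 23 of 23 members, median 0.37, with 0 called, and the median was 0.60 without EMdKO mouse 3 and MKO mouse 4. Its score was 3.99, 3.87, 4.09 and 4.13 in EMdKO mice and 2.94, 3.64, 3.54 and 4.14 in MKO mice, so MKO mice 1 to 3 lay below every EMdKO mouse and MKO mouse 4 above.

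**Figure D4:**
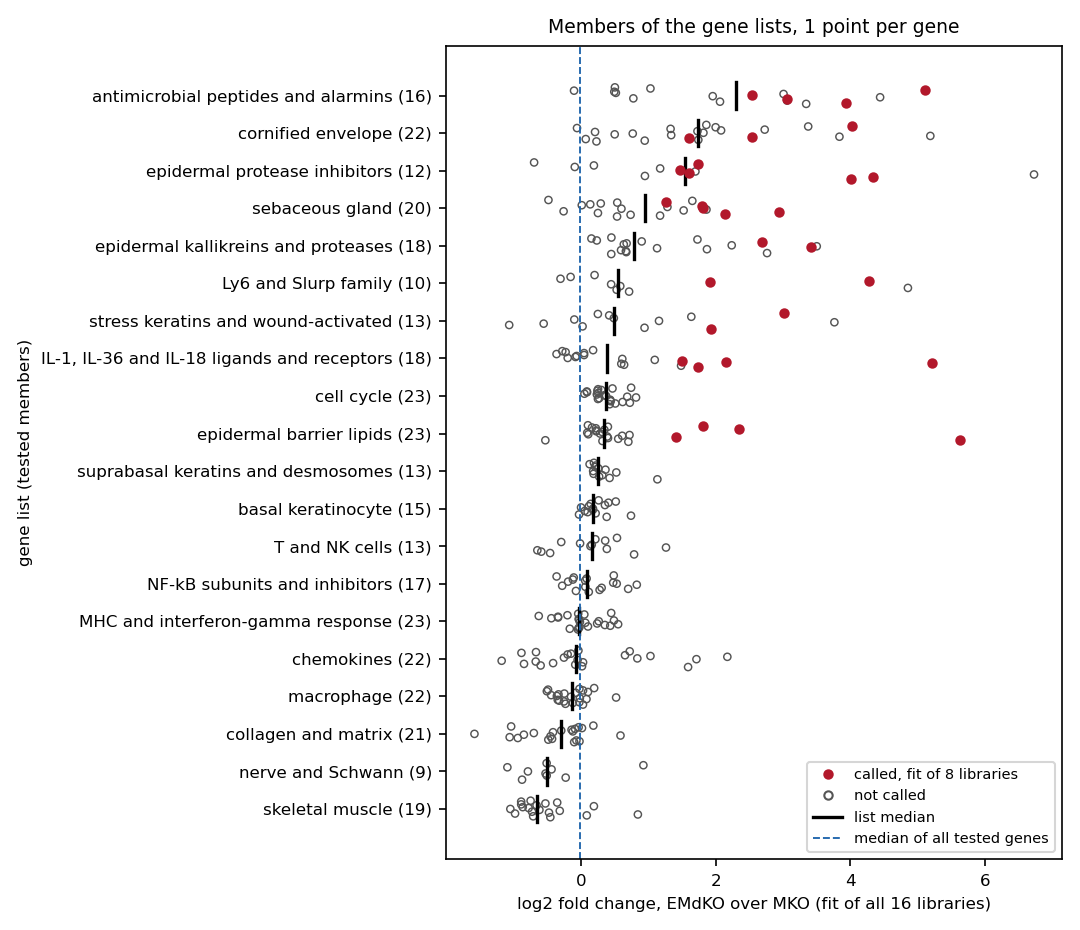
Log2 fold change, EMdKO over MKO in the fit of all 16 libraries (x axis), of the tested members of 20 lists, 1 point a gene, with red points called in the 8-library fit, bars at list medians and a dashed line at the median of all genes. Of the lists drawn, which leave out the hair shaft list, those of antimicrobial and cornified genes sit highest, at medians of 2.30 and 1.73 (0.82 and 1.06 without EMdKO mouse 3 and MKO mouse 4, where protease inhibitors are above both at 1.22), and skeletal muscle lowest, at -0.66. The medians without these 2 mice cover fewer genes: 11 antimicrobial, 19 cornified and 10 inhibitor members, against 16, 22 and 12.

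EKO against control mice, which are other animals, gives the same step in skin without LysM-Cre. Of the 85 genes that rose, 84 had a positive EKO over control log2 fold change (98.8%, against 45.8% of all genes). The count was 84 also without EKO mouse 1, against 45% of all genes, and the exception was Tmprss11e. Without EKO mouse 1, 48 of the 85 were called higher in that comparison, which called 0.821% of genes higher. The median of the 85 genes was 1.94 for EMdKO over MKO, against 1.36 for EKO over control, or 1.71 without EKO mouse 1, and -0.03 over all genes. The genes were picked for their EMdKO over MKO change, which favours a larger median there. EKO mouse 1 was the lowest EKO mouse in 84 of the 85 genes. All 5 genes that fell were negative in EKO over control, where 45.8% of all genes were positive. Without EKO mouse 1, 2 of the 5 were called lower, against 0.102% of all genes. These 2 were Zc3h12a, the floxed gene itself in both comparisons, and Amer2. Amer2 had 1.55 CPM in EKO mouse 1 and 0 to 0.121 CPM in EKO mice 2 to 4.

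Whether the step differed between the backgrounds was tested as an interaction, (EMdKO minus MKO) minus (EKO minus control). It called 0 of 13633 genes (0%), with 465 (3.41%) at an unadjusted p under 0.05 and an adjusted p of 0.999 at the smallest (edgeR with Benjamini-Hochberg adjustment), and DESeq2 called 4, the hair genes Krtap4-1, Krtap5-4, Krtap21-1 and Krtap19-9b, named after their values were seen. Of the 85 genes that rose 72 had a larger log2 fold change for EMdKO over MKO than for EKO over control, or 56 without EKO mouse 1, and 6 had an unadjusted interaction p under 0.05, or 11 without EKO mouse 1. These counts lean towards a larger EMdKO over MKO step, because the 85 genes were picked for that change in these mice. Il1f6 had 5.21 in both comparisons. Epgn had an interaction of 2.70 ± 0.81 and Serpinb12 -1.36 ± 0.77, neither called. Krt14 had 1.38 ± 0.29 in EKO over control without EKO mouse 1 and was called there (edgeR, adjusted p = 0.0319), and its interaction was not, at -0.64 ± 0.40 without EKO mouse 1 and -0.33 ± 0.55 with it.

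**Figure D5:**
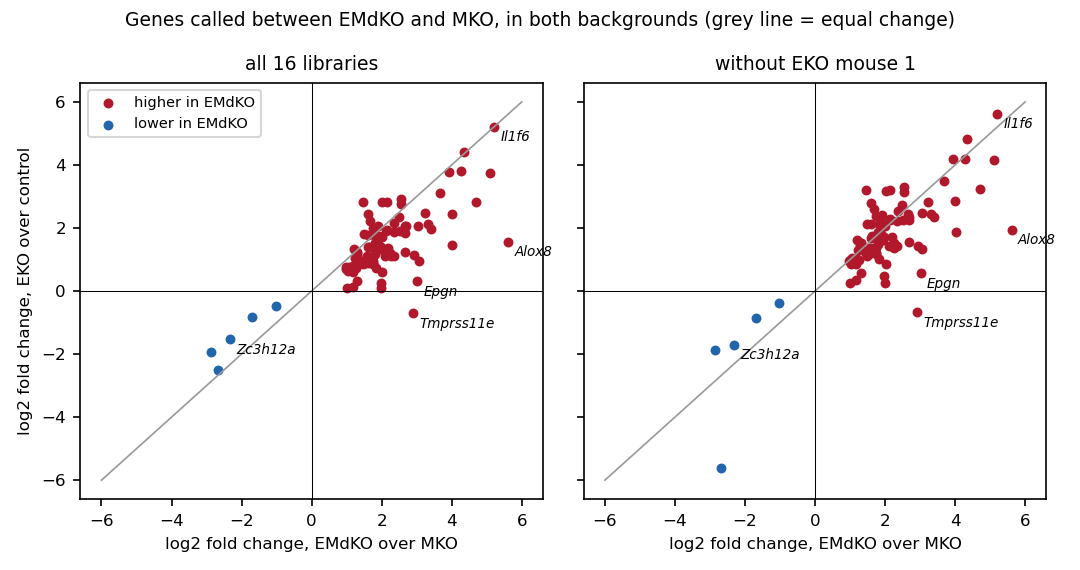
Log2 fold change of EMdKO over MKO (x axis) and of EKO over control (y axis) for the 90 genes called between EMdKO and MKO in the 8-library fit, with all 16 libraries on the left and without EKO mouse 1 on the right. Points on the grey line changed equally; 84 of the 85 higher genes lie above 0 on the y axis, and all 5 lower ones below.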

How the data were processed

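Whole skin RNA of 12-week-old mice was measured on snap-frozen tissue (Ion AmpliSeq Transcriptome Mouse kit), according to the labels. The authors deposited raw counts for 23930 targets in each library. Per the submitters' processing notes the tools were HTSeq 0.6.0 and DESeq2 1.18.1. An aligner, genome build and strand setting are not given in the sources used here, so reads of a gene and an antisense partner cannot be told apart. HTSeq's 5 summary lines, 3.111 to 5.252% of a library, were left out. Symbols were found for 22562 targets (22452 through RefSeq GRCm38.p6, 110 through GENCODE vM21), and 1368 had none. Library totals were 6962474 to 12086327. No 2 libraries of a group looked like copies (chi-square over degrees of freedom at least 15.25).

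Counts were fitted by the quasi-likelihood method of edgeR 4.0.16 under R 4.3.3 (TMM scaling, the default expression filter, Benjamini-Hochberg adjustment, called under 0.05). The main fit had 1 mean per group over all 16 libraries (13633 genes, 12 residual degrees of freedom, common dispersion 0.0964). The 8-library fit was a listed alternative (13126 genes, 6 residual degrees of freedom, common dispersion 0.0625). List scores are means of log2 CPM with a prior count of 2. Alternatives were DESeq2 1.42.0, limma-voom (limma 3.58.1), other scaling and filters, tissue scores as covariates, the mouse number as a block, and each library left out. Apart from the replicate block, the alternatives of the 8-library fit were added after seeing the data. The fits of all 16 libraries by edgeR, limma-voom and DESeq2 were first tested on simulated counts. That test did not cover the 8-library fits.

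The 36 gene lists, the comparison and its members were chosen with earlier results of these data known, so lists are described by counts and medians, with no test. Named genes were Zc3h12a, Krt14 and Lyz2, the called genes (the 12 with the smallest p where there were more), the genes next in p up to 6 in a direction, and up to 4 members of each list described. The same rule was used in the 8-library fit. The limit given for a gene without counts covers counting error only. The standard errors of the log2 fold changes come from the F statistic, so they also include the estimated spread between mice.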

Additional observations from a re-analysis of the deposited data

Results flagged for a closer look

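Of 196 sets of 4 mice (the named genes and 4 list scores, in EMdKO and in MKO mice), 23 had 1 mouse far from the other 3 by Dixon's criterion. Chance alone flags about 1 in 20 such sets, and sets of genes that move together are not independent.

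EMdKO mouse 3 stood apart as the highest of its group in 9 of these. Its hair keratin and keratin-associated genes were high, with 80.5 CPM for Krt84, 64.8 CPM for Krtap4-16, 108 CPM for Krtap3-1 and 254 CPM for Krtap8-1. So were lipid and other enzymes, with 216 CPM for Soat1 and 63.8 CPM for Aadacl3. Lcn2 stood at 76.3 CPM, Hbegf at 19.98 CPM and Amer2, which fell in EMdKO mice, at 0.856 CPM.

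In MKO mice, MKO mouse 3 was the highest for the matrix genes Col6a5, at 713 CPM, and Fn1, at 2032 CPM, for Epgn at 5.005 CPM, for Sprr2g at 0.477 CPM and for the neutrophil score at 1.98. MKO mouse 4 was the highest for the hair score at 3.07, for Krtap4-16 at 1.13 CPM and for Krtap8-1 at 5.02 CPM. MKO mouse 1 was the highest for the muscle gene Neb at 1529 CPM and the lowest for Elovl4 at 297 CPM. MKO mouse 2 was the highest for Serpinb3a at 0.126 CPM, which is 1 count, for Krt84 at 1.90 CPM, for Serpinb12 at 24.9 CPM and for Degs2 at 3.67 CPM.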

How the results depend on the processing

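The number of calls between EMdKO and MKO depended on the libraries and the tool more than on scaling. In the fit of all 16 libraries, 1 call became 143 with DESeq2, 8 with limma-voom, 9 without the filter, 2 with the hair and 8 with the muscle covariate, 90 with the 8 libraries alone and 95 without EKO mouse 1, and leaving out single libraries gave 1 to 95 (without control mouse 1, 2, and without control mouse 4, 3). In the 8-library fit, 90 calls became 301 with DESeq2, 37 without EMdKO mouse 3 and MKO mouse 4, and 26 to 77 with 1 mouse left out, the lowest without MKO mouse 4. The interaction had 0 calls in edgeR and 4 with DESeq2. The 8-library calls rest on 6 residual degrees of freedom.

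Mouse numbers did not pair the animals: deviations of same-numbered EMdKO and MKO mice correlated at -0.195, -0.103, -0.146 and -0.472. With the number as a replicate block, the fit of all 16 libraries made 1 call and the 8-library fit 56, of which 50 were among the 90.

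The permutation difference of Zc3h12a was -2.42 to -2.08 with 1 mouse left out, where the smallest p possible is 0.0571. In both fits the log2 fold change of Lyz2 ran from -0.06 (without EMdKO mouse 2) to 0.18 over the libraries left out, and was -0.01 without MKO mouse 2. In the larger fit Krtap4-16 ran from -1.44 (without EMdKO mouse 3) to 10.19 and Krtap8-1 from -2.87 to 12.15 (without MKO mouse 4). The cause of these changes was not tested. Genes with fewer than about 10 counts in MKO libraries, such as Il1f6 and Klk12, have rough folds.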
